A study of Mus musculus with 9 samples.

Results

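Autophagy machinery genes were read out in RAW264.7, a mouse cell line with macrophage properties, as 34 of the 20627 features of the deposited gene table. They were chosen by gene name from a list of initiation, conjugation and receptor genes; the rule uses no measured value, but the list was drawn up with earlier results of these data known. All 34 were found with 1 row each. Of these, 33 passed the filter on low counts and were tested among 13311 genes; the receptor gene Optn did not. The groups held 3 libraries each of polyadenylated RNA from the same cell line: NC, the control, for which the sources used here give neither glucose concentration nor time; HG, with 6 h in 35 mmol/l glucose; and HG-SIG, which had sitagliptin phosphate added to the same glucose over the same 6 h. Sitagliptin is a diabetes drug that blocks the protease dipeptidyl peptidase 4, and its concentration here is not stated in the labels. No group received sitagliptin without added glucose or an osmotic control, so HG-SIG against HG concerns the addition of sitagliptin under high glucose. RNA levels were measured, and neither autophagic flux nor protein was.

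Autophagy encloses cytoplasm, organelles or bacteria in a newly built membrane, the phagophore, which closes into an autophagosome and fuses with the lysosome. The ULK1 kinase complex starts the process under the control of the nutrient kinases MTORC1 and AMPK, and the class III PI3-kinase complex around VPS34 then marks the membrane with phosphatidylinositol 3-phosphate. ATG2 and ATG9 proteins supply lipid, WIPI proteins read the lipid mark, and a ubiquitin-like conjugation system attaches ATG8 proteins (LC3 and GABARAP) to the membrane, where they hold cargo receptors. In macrophages the same machinery also takes part in clearing intracellular bacteria and in attaching LC3 to phagosomes.

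Library totals ran from 23285821 to 31571578 counts, and 3 counts corresponded to 0.095 to 0.129 CPM, that is, counts set to 1 library size with TMM factors, which remove shifts shared by most genes. TMM factors were 0.948 to 0.9545 for NC, 0.9609 to 0.9767 for HG and 1.0783 to 1.0907 for HG-SIG. Scaling by library size alone therefore raised the median log2 fold change of all genes by 0.161 in HG-SIG against HG and by 0.19 in HG-SIG against NC, but by 0.029 in HG against NC. All 10 macrophage markers looked at were in the table and 9 were tested, Mrc1 being the exception. Their summed level was 11110 to 11570 CPM for NC, 9997 to 10770 for HG and 5205 to 5307 for HG-SIG, and 8 of the 9 fell in HG-SIG against HG (Lyz2, lysozyme, by 1.11 on the log2 scale) while Fcgr3 rose. Of 25 markers of lymphocytes, epithelium, fibroblasts or endothelium, 17 were in the table and none passed the filter on low counts; each of these lists summed to at most 0.4175 CPM in any library. In bulk RNA of 1 cell line, a smaller share of cells with high marker levels and less marker RNA in every cell cannot be told apart. The part of this marker fall in the differences described for HG-SIG was not tested.

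With high glucose alone, the 33 tested autophagy genes changed by small amounts, and the share called was near that of all genes. In HG against NC, 9 of the 33 tested genes passed the test (adjusted p under 0.05), against 29.5% of all 13311 genes, so the share was close to the background. Higher in HG were Calcoco1, Atg2a, Ulk2, Pik3c3 and Uvrag, by 0.13 to 0.29 on the log2 scale; lower were Gabarapl1, Atg4a, Atg16l1 and Tax1bp1, by 0.11 to 0.26. The 33 log2 fold changes ran from -0.26 to 0.29 with a median of 0.04 and a median absolute value of 0.08, where all genes had 0 and 0.14 and ran from -0.68 to 0.44 between the 5th and 95th percentiles. The libraries of HG and NC did not overlap for 14 of the 33 genes, 7 higher and 7 lower, against 41.7% of all genes (20.8% higher and 20.8% lower). No autophagy gene changed by more than 1, a size that 2.85% of all genes reached with a call. Calls on Atg4a, Gabarapl1 and Calcoco1 held under all 19 alternative settings. Leaving out 1 library took away the others: adjusted p rose to as much as 0.0596 for Ulk2 (without NC replicate 1 or 2, or HG replicate 2 or 3), 0.168 for Pik3c3 (without any NC replicate, HG replicate 2 or HG-SIG replicate 1), 0.199 for Uvrag (without NC replicate 1 or 3, HG replicate 2 or any HG-SIG replicate), 0.0807 for Atg2a (without NC replicate 1 or 3, or HG replicate 2 or 3), 0.102 for Atg16l1 (without NC replicate 1, or HG replicate 1 or 2) and 0.138 for Tax1bp1 (without NC replicate 1 or 3, HG replicate 1 or 3 or any HG-SIG replicate). DESeq2 also ended the calls on Ulk2, Pik3c3 and Uvrag (adjusted p = 0.078, 0.0683 and 0.077). The number called was 3 without NC replicate 1, and 5 without NC replicate 3 or without HG replicate 2.

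With sitagliptin under high glucose, more autophagy genes differed, most of them upwards. In HG-SIG against HG, 19 of the 33 tested genes passed, 16 higher and 3 lower, against 52.5% of all genes (25.7% higher, 26.8% lower). The share called was near the background. By direction, 84.2% of the autophagy calls were higher, against 48.9% of all calls, which is a description and not a test. The median log2 fold change was 0.15, against 0.01 over all genes, and the median absolute value was 0.17, against 0.22. Only Wipi1 changed by more than 1, a size that 5.3% of all genes reached with a call; Wipi1, Ulk1 and Ulk2 lay above 0.73, the 95th percentile of all genes. The lower genes were Atg13, Atg7 and Gabarap. Libraries did not overlap for 23 of the 33, 18 higher and 5 lower, against 58.7% of all genes (29.9% higher, 28.8% lower). Scaled by library size alone, 27 were higher and 1, Atg13, was lower, while 76.9% of all calls were then higher. With the same scaling Atg7 and Gabarap no longer passed (adjusted p = 0.598 and 0.881).

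HG-SIG libraries differed from NC in 25 of the 33 genes, 19 higher and 6 lower, against 58.6% of all genes (29.9% higher, 28.7% lower). Their median log2 fold change was 0.16, against 0.02 over all genes, and libraries did not overlap for 27, 20 higher and 7 lower, against 65.9% (34.2% higher, 31.7% lower). Wipi1 alone passed with a change over 1, as did 8.51% of all genes. Atg13, Gabarap, Atg16l1, Atg7, Atg4a and Becn1 were lower, by 0.08 to 0.42. By library size alone, 26 were higher and 1, Atg13, was lower, 76.2% of all calls being higher. This comparison shares its HG-SIG libraries with HG-SIG against HG and its NC libraries with HG against NC, so the values of the 3 comparisons are set side by side below and are not independent of each other.

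**Figure D1:**
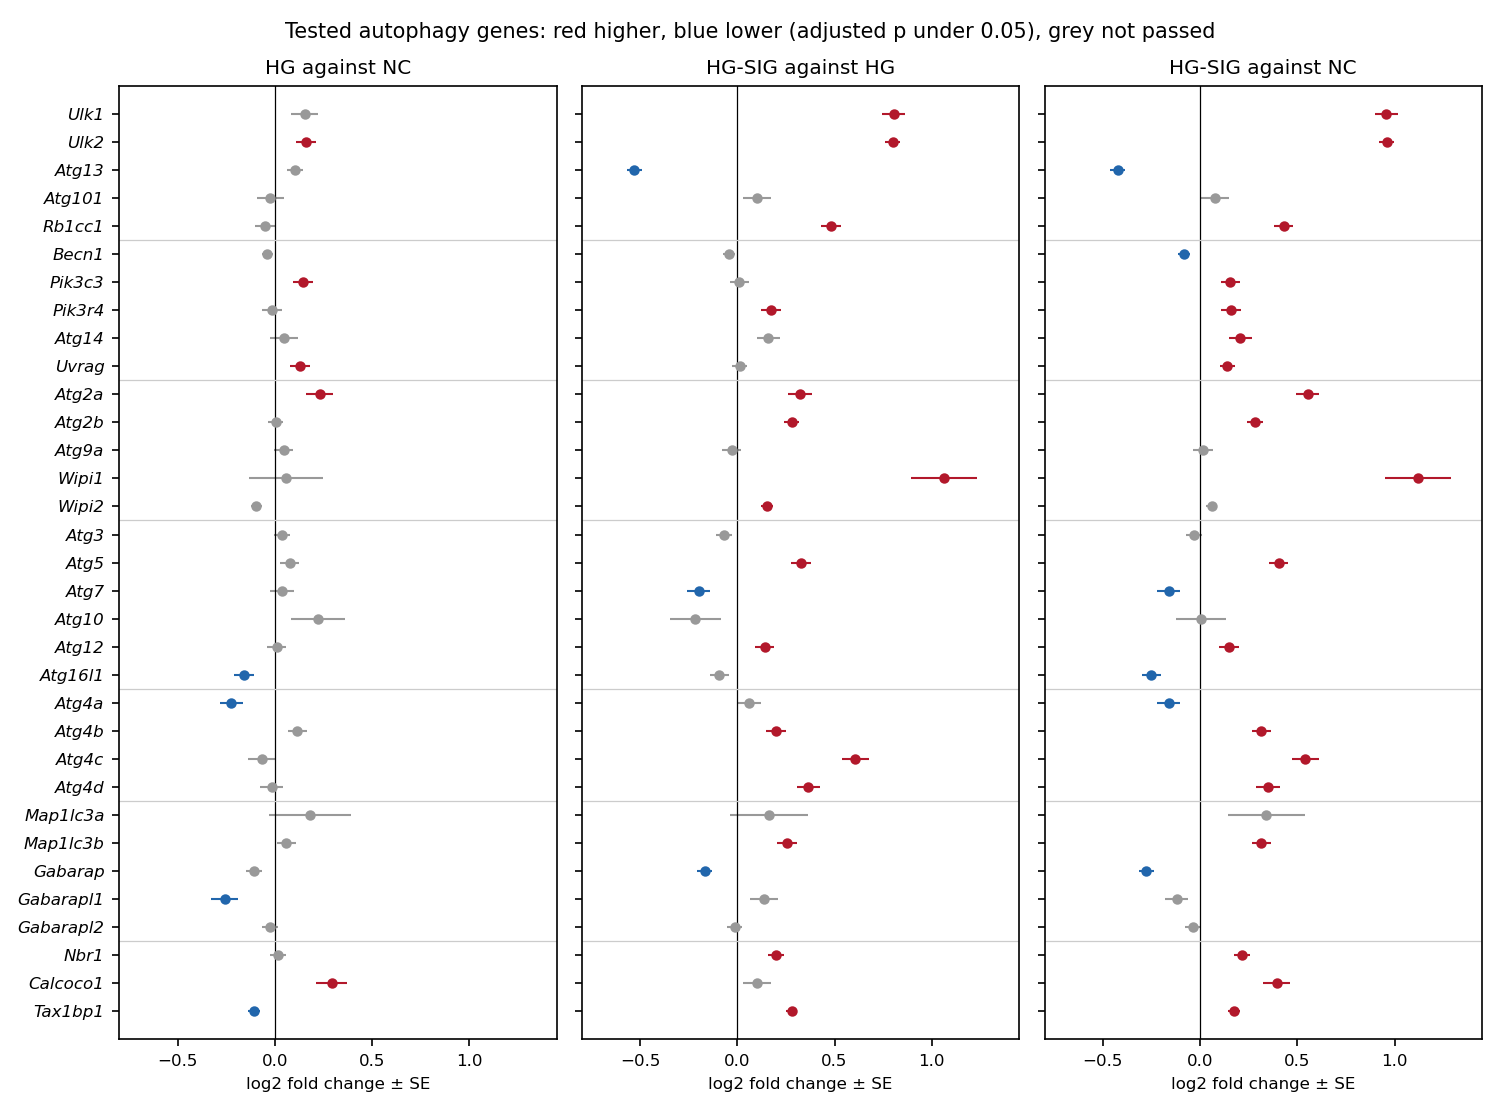
Log2 fold change (edgeR, TMM scaling, horizontal axis) ± SE of the 33 tested autophagy genes in the 3 comparisons, 3 libraries per group, with grey lines between roles. HG against NC stays between -0.26 and 0.29; with sitagliptin Wipi1, Ulk1 and Ulk2 reach 0.80 to 1.06 against HG and Atg13 falls by 0.53, while the small falls of Atg7 and Gabarap do not pass when scaled by library size alone.

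Within the ULK1 initiation complex, 3 of 5 genes rose and 1 fell in HG-SIG against HG, where 52.5% of all genes were called (25.7% higher, 26.8% lower). By library size alone 4 rose and 1 fell. Ulk1, the initiating kinase (chr5:110784488-110810097 in GRCm38, minus strand), was at 15.1, 14.5 and 15.0 CPM in NC, 16.0, 17.3 and 16.5 in HG and 27.9, 27.7 and 31.0 in HG-SIG. HG-SIG libraries lay above all 6 others and HG lay just above NC. The log2 difference was 0.80 ± 0.06 (SE, n = 3 and 3; adjusted p = 3.297e-07) in HG-SIG against HG and 0.96 ± 0.06 against NC, and 0.15 ± 0.07 in HG against NC, which did not pass (adjusted p = 0.0943). Ulk2, its paralogue (chr11:61775649-61855073, minus strand), was at 23.0, 22.8 and 24.0 CPM in NC, 25.2, 26.3 and 26.6 in HG and 45.4, 45.2 and 45.2 in HG-SIG. The 3 groups did not overlap, and the 3 HG-SIG libraries were almost equal. Ulk2 rose by 0.16 ± 0.05 in HG against NC, by 0.80 ± 0.04 in HG-SIG against HG (adjusted p = 1.303e-08) and by 0.96 ± 0.04 against NC. Rb1cc1, which encodes the scaffold FIP200, was at 32.8, 30.1 and 31.9 CPM in NC, 29.4, 30.6 and 31.8 in HG and 41.0, 43.2 and 43.7 in HG-SIG. HG and NC overlapped, and HG-SIG stood above both, by 0.48 ± 0.05 over HG (adjusted p = 5.088e-06) and 0.43 ± 0.05 over NC. Atg13, the regulatory subunit that MTORC1 phosphorylates (chr2:91674618-91710576, minus strand), went the other way, at 64.8, 65.4 and 63.6 CPM in NC, 68.9, 69.6 and 69.9 in HG and 49.6, 48.7 and 46.0 in HG-SIG. HG-SIG was the lowest group without overlap, by 0.53 ± 0.04 under HG (adjusted p = 2.238e-07) and 0.42 ± 0.04 under NC, and Atg13 was lower under every setting. Atg101, the partner of ATG13, did not pass in any comparison with TMM (by library size alone it was higher in HG-SIG, by 0.26 against HG, adjusted p = 0.00746), at 22.0 ± 1.9 CPM for NC, 21.5 ± 1.67 for HG and 23.1 ± 0.85 for HG-SIG (mean ± SD, n = 3). Summed over the 5 genes the level was 154.2 to 158.2 CPM for NC, 161.4 to 166.6 for HG and 187.2 to 188.8 for HG-SIG.

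**Figure D2:**
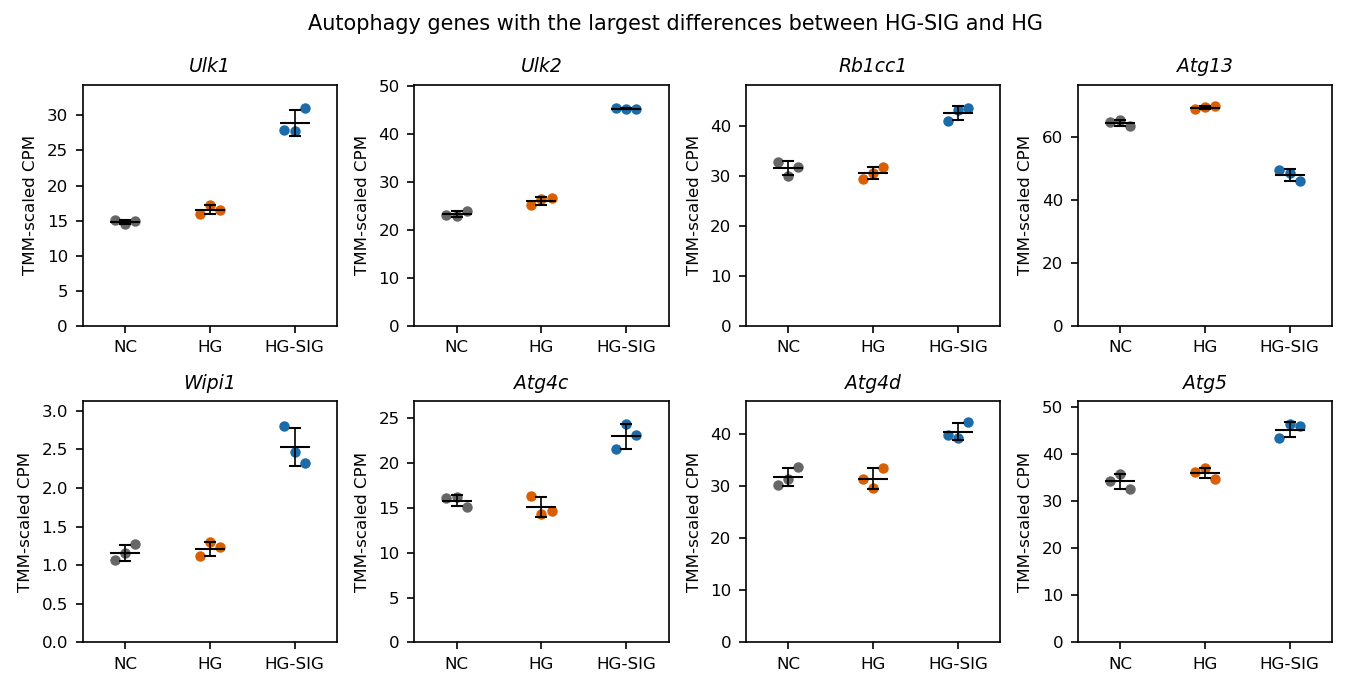
TMM-scaled CPM (vertical axes from 0) in each library for the 8 autophagy genes with the largest called differences between HG-SIG and HG; points are libraries, bars the mean ± SD of 3. Atg13 is lowest in HG-SIG, at 46.0 to 49.6 CPM, and the other 7 genes are highest there with no overlap.

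The promoter windows of the 3 genes with the largest rises and of Atg13, with the largest fall, are shown because these 4 genes are at the ends of the range of log2 fold changes in HG-SIG against HG. Each runs from 250 bases before to 50 bases after a RefSeq start (GRCm38.p6), read 5′ to 3′ on the gene's strand; capitals mark GC boxes (GGGCGG, or CCGCCC on the other strand), the letters that Sp-family factors bind. The windows are chr5:110810032-110810331 for Ulk1, chr11:61855043-61855342 for Ulk2, chr11:109611340-109611639 for Wipi1, which GENCODE M21 starts farther upstream, and chr2:91710543-91710842 for Atg13, all on the minus strand. GENCODE M21 also starts Ulk1 slightly farther upstream.
Ulk1: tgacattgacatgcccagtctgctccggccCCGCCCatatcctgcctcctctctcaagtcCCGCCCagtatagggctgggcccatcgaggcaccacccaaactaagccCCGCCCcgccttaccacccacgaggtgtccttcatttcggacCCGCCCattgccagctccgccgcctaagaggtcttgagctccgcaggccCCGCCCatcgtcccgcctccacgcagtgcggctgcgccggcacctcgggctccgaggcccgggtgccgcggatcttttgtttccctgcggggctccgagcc
Ulk2: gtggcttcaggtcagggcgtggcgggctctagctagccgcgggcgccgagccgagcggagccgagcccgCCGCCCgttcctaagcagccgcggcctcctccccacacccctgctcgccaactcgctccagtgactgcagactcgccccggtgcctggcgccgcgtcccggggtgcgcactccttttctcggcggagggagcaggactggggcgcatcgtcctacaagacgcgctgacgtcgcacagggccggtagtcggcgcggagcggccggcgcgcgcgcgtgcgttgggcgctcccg
Wipi1: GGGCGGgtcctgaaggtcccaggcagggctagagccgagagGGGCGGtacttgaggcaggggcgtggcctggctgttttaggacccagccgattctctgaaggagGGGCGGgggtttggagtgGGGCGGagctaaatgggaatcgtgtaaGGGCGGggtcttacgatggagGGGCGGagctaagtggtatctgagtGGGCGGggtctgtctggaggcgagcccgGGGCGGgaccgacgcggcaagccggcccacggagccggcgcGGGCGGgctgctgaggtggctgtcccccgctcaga
Atg13: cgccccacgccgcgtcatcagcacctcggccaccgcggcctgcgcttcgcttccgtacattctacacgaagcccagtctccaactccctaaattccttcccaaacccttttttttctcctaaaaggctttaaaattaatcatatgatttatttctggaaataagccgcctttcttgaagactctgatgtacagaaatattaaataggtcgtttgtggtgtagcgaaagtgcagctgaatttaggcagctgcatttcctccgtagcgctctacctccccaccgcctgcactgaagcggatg
Wipi1 held 9 GC boxes, Ulk1 5, Ulk2 1 and Atg13 none. The windows were 69.0%, 68.0%, 74.7% and 49.0% G or C, where the median window of all genes had 52.7% and that of the autophagy genes 59.7%. At least 1 GC box stood in 20 of 32 windows of the autophagy genes (62.5%), against 35.7% of all 32851 windows. All windows, here and for the motifs below, come from 27025 genes and so include genes not tested here. Shares among the 13311 tested genes alone were not computed. RefSeq windows matched 28 of the 34 genes, with 32 starts. Atg12, Becn1, Pik3c3, Atg16l1, Map1lc3a and Rb1cc1 had no entry. Of the genes with a GC box, Atg3, Atg10, Atg14, Atg4a, Calcoco1, Gabarapl1, Gabarapl2 and Uvrag did not pass in HG-SIG against HG. Optn was not tested and the rest were higher. Of the matched genes without a GC box, Atg4c, Atg2a and Pik3r4 were higher. Atg13, Atg7 and Gabarap were lower, and Atg101 and Atg9a did not pass. A relation between GC boxes and direction was not tested.

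An E-box (CACGTG, its own reverse complement), the core of the sites that the MITF and TFEB family and several other factors bind, stood in 4 of the 32 windows (12.5%), against 7.15% of all windows. These were windows of Atg7, Atg5, Atg14 and Atg3, shown as stretches of 40 bases with the E-box in capitals. They are shown because Mitf and Tfeb were among the genes that fell in HG-SIG against HG (below). Tfe3 and Tfec, of the same family, did not pass there (-0.01 and 0.25). The stretches are chr6:114670947-114670986 (plus strand) for Atg7, chr10:44268308-44268347 (plus) for Atg5, chr14:47568413-47568452 (minus) for Atg14 and chr16:45158718-45158757 (plus) for Atg3.
Atg7: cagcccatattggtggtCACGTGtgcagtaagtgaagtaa
Atg5: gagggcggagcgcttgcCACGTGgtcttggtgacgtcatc
Atg14: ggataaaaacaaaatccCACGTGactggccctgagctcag
Atg3: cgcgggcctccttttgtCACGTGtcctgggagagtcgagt
The E-boxes began 132, 14, 1 and 94 bases before the RefSeq start, and Atg3 held another at 71 bases. For Atg7 and Atg14 that RefSeq start lies inside the gene as GENCODE M21 draws it (chr6:114643097-114860614 and chr14:47540893-47570649), so these 2 stretches do not stand at the outermost annotated start. The RefSeq start of Atg3 also lies just inside its gene (chr16:45158785-45188538), but its stretch lies before the outermost annotated start. In HG-SIG against HG, Atg5 was higher, Atg7 was lower and Atg14 and Atg3 did not pass. The longer palindrome known as the CLEAR motif, which contains the E-box, was in none of the windows of the autophagy genes and in 0.326% of all windows. Neither GTAAACA, read by FOXO factors (3.65% of all windows), nor TTGCATCA, read by ATF4 (0.895%), was in any of the 32, each searched on both strands. The FOXO genes Foxo1, Foxo3 and Foxo4 rose in HG-SIG against HG (0.63 ± 0.08, 0.29 ± 0.04 and 0.31 ± 0.07), and Atf4 fell (-0.42 ± 0.04). A relation between these factors and the autophagy genes was not tested.

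The class III PI3-kinase complex, which makes the lipid mark, differed by at most 0.21 on the log2 scale. In HG against NC 2 of 5 genes rose (29.5% of all genes called), in HG-SIG against HG 1 of 5 rose (52.5%), and in HG-SIG against NC 4 rose and 1 fell (58.6%). All 5 were higher in HG-SIG than in HG, and than in NC, by library size alone. Pik3c3, the catalytic subunit VPS34, was at 50.2, 49.4 and 48.2 CPM in NC, 53.1, 58.4 and 51.8 in HG and 53.4, 56.3 and 54.9 in HG-SIG. NC lay below all HG and HG-SIG libraries, with log2 differences of 0.14 ± 0.05 for HG (adjusted p = 0.0379) and 0.16 ± 0.05 for HG-SIG (0.013), and HG and HG-SIG overlapped. Uvrag, a subunit of the endosomal form of the complex, was at 70.1, 73.9 and 69.2 CPM in NC, 74.6, 82.3 and 76.1 in HG and 77.7, 80.3 and 76.8 in HG-SIG. Again NC was lowest without overlap, by 0.13 ± 0.05 against HG (adjusted p = 0.0472) and 0.14 ± 0.04 against HG-SIG (0.0159); Gm45187 shares 17.59% of its exonic length, so reads of both may be counted. Becn1, the scaffold Beclin 1, was at 110.6, 111.9 and 111.0 CPM in NC, 109.1, 106.8 and 108.9 in HG and 102.8, 107.6 and 104.7 in HG-SIG. All HG-SIG and HG libraries lay below the NC libraries, HG and HG-SIG overlapped, and the difference passed only for HG-SIG against NC (-0.08 ± 0.03, adjusted p = 0.0485). That call was lost without any 1 NC library, HG replicate 1 or 2, or HG-SIG replicate 1 or 3 (adjusted p 0.0565 to 0.171), and by library size alone Becn1 was instead higher in HG-SIG than in NC (0.11) and HG (0.12). Cntd1 shares 43.93% of the exonic length of Becn1. Pik3r4, the kinase-like subunit VPS15, rose in HG-SIG by 0.17 ± 0.05 against HG (not without HG replicate 1 or 2, adjusted p = 0.0509 and 0.0551) and by 0.16 ± 0.05 against NC (adjusted p = 0.0558 without NC replicate 2 and 0.0629 with DESeq2). Atg14, which directs the complex to the phagophore, was at 9.89 ± 0.389, 10.2 ± 0.13 and 11.4 ± 0.157 CPM in NC, HG and HG-SIG; it rose against NC (0.21 ± 0.06, adjusted p = 0.0129, but 0.0957 with DESeq2) and narrowly missed against HG (0.16 ± 0.06, adjusted p = 0.0508), though no HG-SIG library overlapped HG. Without 1 library, HG-SIG against NC was also lost for Pik3c3 (NC replicate 3 or HG-SIG replicate 2, adjusted p = 0.0527 and 0.0522) and Uvrag (NC replicate 1 or 3, or HG-SIG replicate 2, 0.0559 to 0.0664).

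Genes for lipid supply and for reading the lipid mark rose in HG-SIG in 4 of 5 cases against HG (52.5% of all genes called, 25.7% higher) and in 3 of 5 against NC (58.6% called, 29.9% higher). All 5 were higher in both comparisons by library size alone. Wipi1, a reader of phosphatidylinositol 3-phosphate (chr11:109573331-109611967, minus strand), had the largest log2 difference of the 33 genes from a low level, 1.06, 1.16 and 1.27 CPM in NC, 1.11, 1.30 and 1.23 in HG and 2.81, 2.47 and 2.33 in HG-SIG. Over 3 libraries each, NC had 98 counts, HG had 93 and HG-SIG had 244. All HG-SIG libraries lay well above the rest and HG and NC overlapped, with 1.06 ± 0.17 against HG (adjusted p = 0.000239) and 1.12 ± 0.17 against NC. Wipi2, its paralogue that recruits ATG16L1, moved less, from 68.6 ± 0.364 CPM in NC and 64.3 ± 0.0982 in HG to 71.5 ± 1.12 in HG-SIG, a rise of 0.15 ± 0.03 against HG (adjusted p = 0.00187); the lower level in HG than in NC did not pass (-0.09 ± 0.03, adjusted p = 0.0514). Atg2a, a lipid transfer protein, was at 23.9, 24.0 and 23.7 CPM in NC, 26.0, 29.3 and 28.9 in HG and 32.0, 35.3 and 37.7 in HG-SIG. The 3 groups followed each other without overlap, and Atg2a rose in each step, by 0.23 ± 0.07 in HG against NC (adjusted p = 0.0209) and by 0.32 ± 0.06 in HG-SIG against HG (0.00109), which came to 0.55 ± 0.06 in HG-SIG against NC. Atg2b, the other lipid transfer protein, differed only in HG-SIG, by 0.28 ± 0.04 against HG and 0.28 ± 0.04 against NC, at 83.0 ± 0.323 CPM against 68.5 ± 4.15 and 68.2 ± 1.37. Atg9a, the scramblase of the seed vesicles, passed in no comparison with TMM (54.9 ± 1.34, 56.8 ± 3.57 and 55.6 ± 1.92 CPM in NC, HG and HG-SIG). By library size alone it was higher in HG-SIG, by 0.13 against HG (adjusted p = 0.0431) and 0.21 against NC, and Gm29253 and Ankzf1 share 32.59% of its exonic length.

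In the ubiquitin-like conjugation system the directions were mixed: 1 of 6 genes fell in HG against NC, 2 rose and 1 fell in HG-SIG against HG, and 2 rose and 2 fell in HG-SIG against NC (29.5%, 52.5% and 58.6% of all genes called). Atg5, which is joined to ATG12, was at 34.3, 35.8 and 32.6 CPM in NC, 36.3, 37.0 and 34.8 in HG and 43.5, 46.4 and 46.0 in HG-SIG. NC and HG overlapped and HG-SIG stood above both, by 0.33 ± 0.05 over HG (adjusted p = 9.54e-05) and 0.40 ± 0.05 over NC. Atg16l1, which places the conjugate on the membrane, was at 53.0, 51.2 and 50.8 CPM in NC, 44.6, 44.9 and 49.7 in HG and 42.4, 42.9 and 45.0 in HG-SIG. NC was highest without overlap and HG and HG-SIG overlapped, with -0.16 ± 0.05 in HG against NC (adjusted p = 0.0267) and -0.25 ± 0.05 in HG-SIG against NC (0.000603); by library size alone neither passed (adjusted p = 0.0758 and 0.306). Atg12, the ubiquitin-like partner of ATG5, rose slightly in HG-SIG, by 0.14 ± 0.05 against HG (adjusted p = 0.0346) and 0.15 ± 0.05 against NC (0.0223). The first was lost without HG replicate 1 or 3 or HG-SIG replicate 2 or 3 (adjusted p 0.0718 to 0.112) or with DESeq2 (0.103), and the other without NC replicate 2 or 3 or HG-SIG replicate 2 or 3 (0.0501 to 0.076) or with DESeq2 (0.0789). Atg7, the activating enzyme of the system, was at 32.7 ± 1.27 CPM for NC, 33.5 ± 0.659 for HG and 29.2 ± 2.34 for HG-SIG, lower by 0.20 ± 0.06 against HG (adjusted p = 0.0118, and 0.0556 without HG-SIG replicate 2). Against NC it was lower by 0.16 ± 0.06 (adjusted p = 0.0287), a call lost without NC replicate 1 or HG-SIG replicate 2 or 3 (0.0988 to 0.122) and turned to 0.03 by library size alone. The conjugating enzyme genes Atg3 (76.3 ± 1.79, 78.2 ± 1.16 and 74.6 ± 2.13 CPM in NC, HG and HG-SIG) and Atg10 (4.13 ± 0.681, 4.83 ± 0.0401 and 4.17 ± 0.56) passed in none of the 3 comparisons with TMM; by library size alone Atg3 was higher in HG-SIG, by 0.09 against HG (adjusted p = 0.039) and 0.16 against NC. The 6 genes together stayed at 225.2 to 229.4 CPM in all 9 libraries.

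All 4 ATG4 proteases, which trim ATG8 proteins before conjugation and release them afterwards, were called in HG-SIG against NC (58.6% of all genes), 3 higher and 1 lower, and 3 of them, all higher, in HG-SIG against HG (52.5% of all genes). Atg4c was at 16.1, 16.2 and 15.2 CPM in NC, 16.3, 14.3 and 14.6 in HG and 21.6, 24.3 and 23.1 in HG-SIG. HG and NC overlapped and HG-SIG was higher, by 0.61 ± 0.07 over HG (adjusted p = 1.243e-05) and 0.54 ± 0.07 over NC. Atg4d, with 19.34% of its exonic length shared with Kri1, was at 30.2, 31.3 and 33.7 CPM in NC, 31.3, 29.6 and 33.5 in HG and 39.8, 39.3 and 42.3 in HG-SIG. Its HG-SIG libraries too lay above all others, by 0.36 ± 0.06 over HG (adjusted p = 0.000184) and 0.35 ± 0.06 over NC. Atg4b, which acts on most ATG8 proteins, rose by 0.20 ± 0.05 against HG and 0.32 ± 0.05 against NC, from 39.3 ± 0.789 CPM in NC and 42.5 ± 2.24 in HG to 48.9 ± 1.61. Atg4a, which prefers GABARAP proteins, differed from the rest, at 29.4, 27.5 and 27.5 CPM in NC, 24.5, 24.7 and 23.1 in HG and 24.5, 26.7 and 24.3 in HG-SIG. NC lay above all other libraries while HG and HG-SIG overlapped, with -0.22 ± 0.06 in HG against NC (adjusted p = 0.01) and -0.16 ± 0.06 in HG-SIG against NC (0.023). The second was lost without NC replicate 1 or HG-SIG replicate 1 or 3 (adjusted p 0.0816 to 0.098) and had the opposite sign by library size alone (0.03, adjusted p = 0.672). Summed over the 4 genes, the level was 111.1 to 115.6 CPM in the NC and HG libraries and 136.1 to 138.8 in HG-SIG.

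Of the ATG8 family, Map1lc3b rose and Gabarap fell with sitagliptin, and the other 3 gave no call against HG with TMM (52.5% of all genes called). Map1lc3b, which encodes the LC3B protein used as the common autophagosome marker, was at 55.8, 55.2 and 51.1 CPM in NC, 57.9, 57.7 and 53.2 in HG and 67.2, 69.6 and 65.0 in HG-SIG. NC and HG overlapped and HG-SIG was above both, by 0.26 ± 0.05 over HG (adjusted p = 0.000736) and 0.32 ± 0.05 over NC (0.000104). Gabarap, of the other branch of the family, was at 154.9, 157.6 and 157.9 CPM in NC, 146.8, 153.1 and 136.3 in HG and 129.6, 133.4 and 125.2 in HG-SIG. The groups did not overlap and followed the order NC, HG, HG-SIG from high to low, with -0.11 ± 0.04 in HG against NC (adjusted p = 0.0837, and 0.0356 without HG replicate 2), -0.17 ± 0.04 in HG-SIG against HG (0.00603) and -0.28 ± 0.04 in HG-SIG against NC (0.000138). By library size alone the last 2 values were -0.01 and -0.09 and did not pass (adjusted p = 0.881 and 0.0734). Gabarapl1 was at 59.9, 64.7 and 60.3 CPM in NC, 51.5, 56.8 and 46.0 in HG and 54.1, 59.1 and 56.7 in HG-SIG. HG lay below NC, by 0.26 ± 0.07 (adjusted p = 0.0102), with HG replicate 3 lowest of all, and HG-SIG overlapped HG (0.14 ± 0.07, adjusted p = 0.099). With the replicate number as a block, HG-SIG against HG passed for Gabarapl1 (log2 difference 0.14, adjusted p = 0.0243), as it did without HG replicate 2 (0.21, adjusted p = 0.0139) and by library size alone (0.30, adjusted p = 0.00122). Against NC, Gabarapl1 was not called (-0.12 ± 0.06, adjusted p = 0.126) although all HG-SIG libraries lay below NC; with the block it passed (-0.12, adjusted p = 0.0344), as it did without HG replicate 3 (0.0456) and with only these 2 groups in the fit (0.0268), and by library size alone the sign turned (0.07). The gene 1700101I11Rik shares 28.32% of its exonic length. Gabarapl2 was at 86.3, 88.4 and 84.1 CPM in NC, 85.8, 86.8 and 81.8 in HG and 84.5, 85.5 and 81.9 in HG-SIG. All 3 groups overlapped, and differences were -0.02 ± 0.04 for HG against NC, -0.01 ± 0.04 for HG-SIG against HG and -0.04 ± 0.04 for HG-SIG against NC; by library size alone they were 0.01, 0.15 and 0.15. Map1lc3a was close to the lower limit of the test, at 2.16, 1.49 and 1.57 CPM in NC, 1.85, 1.92 and 2.20 in HG and 1.77, 2.18 and 2.68 in HG-SIG. Its groups overlapped and no comparison passed with TMM; the differences were 0.18 ± 0.21, 0.16 ± 0.20 and 0.34 ± 0.20, the last passing by library size alone (0.53, adjusted p = 0.0342).

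**Figure D3:**
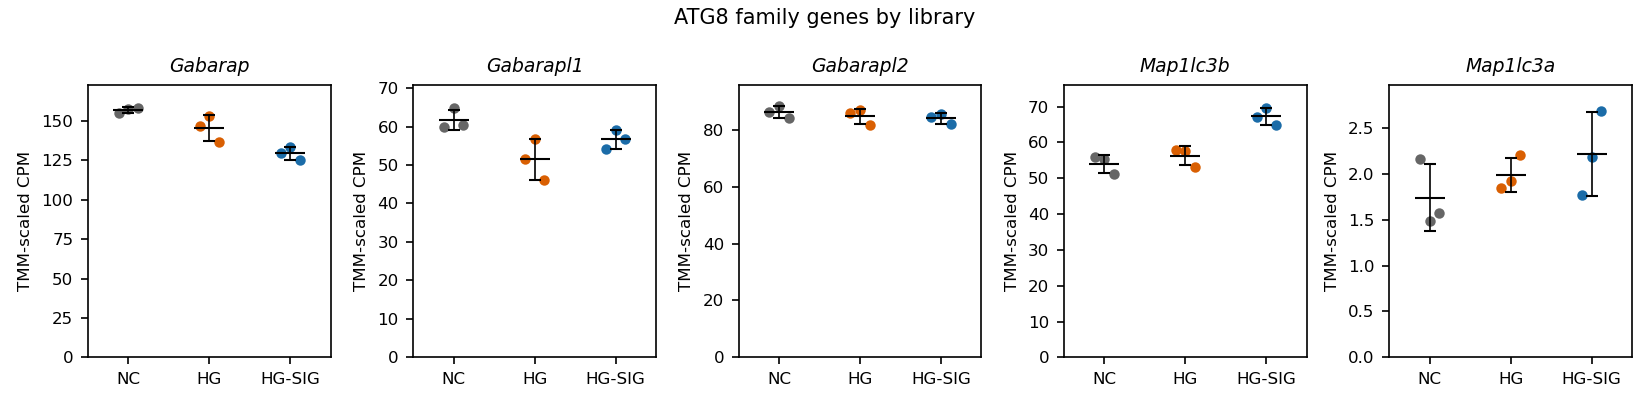
TMM-scaled CPM (vertical axes from 0, 1 scale per gene) of the 5 ATG8 family genes in each library; points are libraries, bars the mean ± SD of 3 per group. Map1lc3b is highest in HG-SIG (65.0 to 69.6 CPM) and Gabarap lowest there (125.2 to 133.4 CPM), a fall that does not pass when scaled by library size alone; Gabarapl2 overlaps in all groups.

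Levels between ATG8 genes were compared per kilobase. Per kilobase of all exons in GENCODE M21, Gabarap stood at 85.0, 78.9 and 70.2 CPM in NC, HG and HG-SIG. Gabarapl2 followed at 37.1, 36.5 and 36.1 and Gabarapl1 at 30.6, 25.6 and 28.1. Map1lc3b had 7.19, 7.49 and 8.95 and Map1lc3a 1.47, 1.68 and 1.87. Per kilobase of the principal transcript the order was the same, but the gap between Gabarapl1 (33.9, 28.3 and 31.1) and Map1lc3b (21.4, 22.2 and 26.6) was smaller: the annotated exons of Map1lc3b together span 7517 bases and its principal transcript 2532. On that scale Gabarap fell from 116 CPM per kilobase in NC to 95.8 in HG-SIG and remained the highest of the 5.

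Among the cargo receptors, Nbr1 and Tax1bp1 rose in HG-SIG against HG (2 of 3 tested, 52.5% of all genes called), Calcoco1 rose in HG against NC, and Optn was close to undetected. Calcoco1, a receptor for the endoplasmic reticulum and the Golgi, was at 9.13, 7.72 and 8.50 CPM in NC, 10.3, 10.1 and 10.8 in HG and 10.9, 11.2 and 11.4 in HG-SIG. NC lay below every other library, and HG lay just below HG-SIG without overlap. The difference was 0.29 ± 0.08 in HG against NC (adjusted p = 0.0112), 0.10 ± 0.07 in HG-SIG against HG (0.269, not passed) and 0.39 ± 0.07 in HG-SIG against NC (0.000543). Tax1bp1, a receptor for ubiquitinated cargo and bacteria, was at 164.7 ± 3.88 CPM for NC, 153.2 ± 3.89 for HG and 185.8 ± 1.26 for HG-SIG. It fell by 0.11 ± 0.03 in HG against NC (adjusted p = 0.0362, and 0.104 by library size alone), and rose by 0.28 ± 0.03 in HG-SIG against HG (2.489e-05) and by 0.17 ± 0.03 against NC. Nbr1, an aggregate and peroxisome receptor, was at 72.6 ± 1.93 and 73.6 ± 3.9 CPM in NC and HG and 84.3 ± 1.1 in HG-SIG, a rise of 0.20 ± 0.04 against HG (adjusted p = 0.00173). Optn, optineurin, had 1 count for NC, 0 for HG and 6 for HG-SIG over 3 libraries each, with exact 95% Poisson intervals of 0.0253 to 5.57, 0 to 3.69 and 2.2 to 13.1 counts that cover counting error only. The HG-SIG libraries had 1, 3 and 2 counts and each HG library 0, so these groups did not overlap, but the counts were too few for the filter and the gene was not tested.

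**Figure D4:**
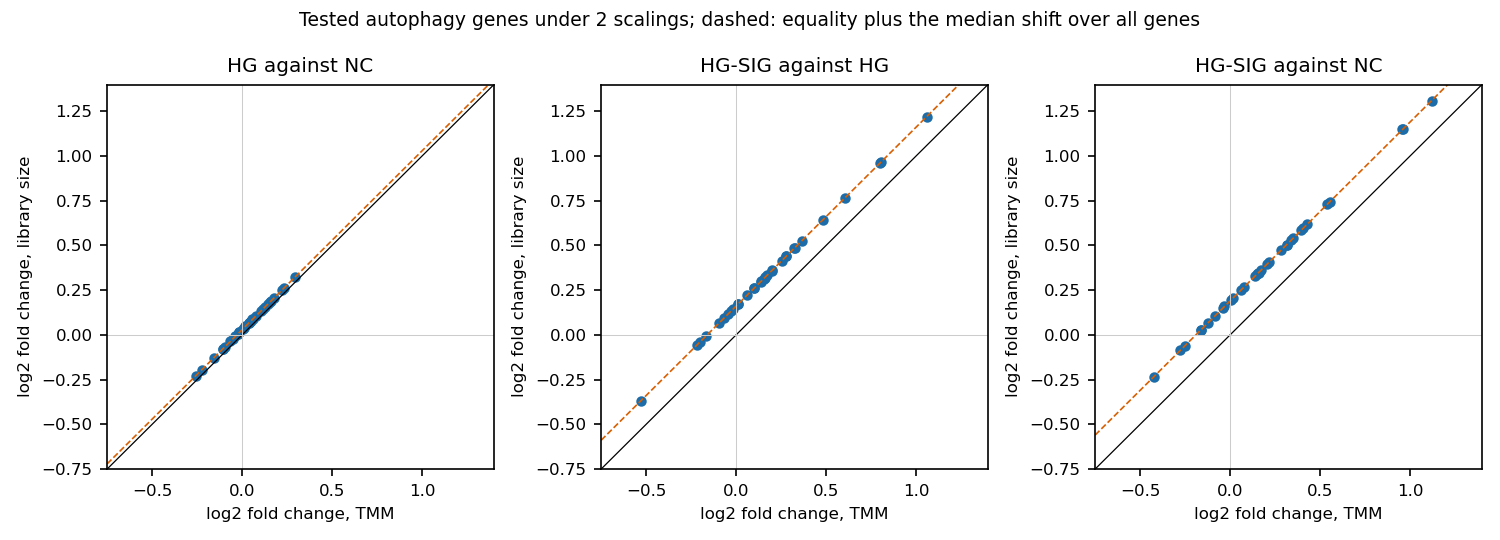
Log2 fold change of the 33 tested autophagy genes with TMM (horizontal axis) and with library size alone (vertical axis) in edgeR; each point is a gene, the solid line is equality and the dashed line is equality plus the shift of the median of all genes (0.029, 0.161 and 0.19). The genes follow the dashed lines, so in HG-SIG some small falls under TMM turn to rises under library size (Becn1 against both HG and NC, Atg7 and Atg4a against NC) and others shrink but stay below 0 (Gabarap, and Atg16l1 against NC), while Wipi1, Ulk1, Ulk2 and Atg4c stay above 0 and Atg13 stays below.

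Further genes of the pathway were counted from 5 lists, with values relative to most genes (TMM); the counts stand against 29.5% of all genes called in HG against NC (14.3% higher, 15.2% lower), 52.5% in HG-SIG against HG (25.7% and 26.8%) and 58.6% in HG-SIG against NC (29.9% and 28.7%). By list, in that order of comparisons, the share called was 23.5%, 70.6% and 64.7% for other formation genes, 31.6%, 57.9% and 68.4% for further receptors, 29.4%, 76.5% and 70.6% for fusion genes, 44.1%, 52.9% and 61.8% for MTORC1 and AMPK genes and 62.5%, 75% and 93.8% for transcriptional regulators, as a description with no test. Of 17 other autophagosome formation genes, 3 rose and 1 fell in HG against NC, 8 rose and 4 fell in HG-SIG against HG, and 8 rose and 3 fell in HG-SIG against NC (medians 0.01, 0.08 and 0.09). By library size alone the split in HG-SIG against HG was 12 and 2. Rubcn, which encodes the autophagy inhibitor Rubicon, rose from 26.3 ± 1.44 CPM in HG to 36.1 ± 0.372 in HG-SIG (0.46 ± 0.05). Atg9b, the paralogue of Atg9a, rose from 14.5 ± 0.548 CPM in NC to 19.6 ± 1.04 in HG (0.44 ± 0.07) and was at 14.1 ± 0.848 in HG-SIG (-0.48 ± 0.07 against HG). The endoplasmic reticulum scramblase gene Tmem41b likewise rose in HG (0.23 ± 0.05) and fell in HG-SIG against HG (-0.37 ± 0.05). Vmp1, its partner, went the other way in both steps, falling in HG (-0.28 ± 0.04) and rising in HG-SIG against HG (0.21 ± 0.04). Against NC, Vmp1 did not pass in HG-SIG (-0.07 ± 0.04).

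Of 19 tested further cargo receptor genes, 2 rose and 4 fell in HG against NC, 7 rose and 4 fell in HG-SIG against HG, and 7 rose and 6 fell in HG-SIG against NC (medians 0.03, 0.02 and 0.03; 10 and 1 by library size alone in HG-SIG against HG). Sqstm1, the ubiquitin receptor, was at 344.8 ± 11.8 CPM for NC, 223.6 ± 10.8 for HG and 210.6 ± 3.9 for HG-SIG. Its log2 difference was -0.62 ± 0.04 in HG against NC (adjusted p = 2.267e-07) and -0.71 ± 0.04 in HG-SIG against NC. In HG-SIG against HG it was not called (-0.09 ± 0.04, adjusted p = 0.102). Ccpg1, an endoplasmic reticulum receptor, rose in HG (0.37 ± 0.05) and again in HG-SIG against HG (0.61 ± 0.05). Ncoa4, the ferritin receptor (0.33 ± 0.03), and Pink1, the mitochondrial damage kinase (0.67 ± 0.10), rose in HG-SIG against HG, and the mitochondrial receptor gene Phb2 fell (-0.34 ± 0.04). The mitochondrial receptor gene Bnip3 fell from 255 ± 36.6 CPM in NC to 151.3 ± 16.1 in HG and 109.2 ± 30.4 in HG-SIG.

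In the 17 fusion genes tested, 2 rose and 3 fell in HG against NC, 7 rose and 6 fell in HG-SIG against HG, and 6 rose and 6 fell in HG-SIG against NC (medians -0.02, 0.01 and 0.06; 11 and 2 by library size alone in HG-SIG against HG). Plekhm1, an adaptor between RAB7 and the tethering complex HOPS, was at 96.3 ± 1.68 CPM for NC, 108.7 ± 5.92 for HG and 56.9 ± 4.13 for HG-SIG (-0.93 ± 0.05 against HG). Stx17, the SNARE of the autophagosome, rose by 0.37 ± 0.04 in HG-SIG against HG, and the HOPS gene Vps16 fell by 0.28 ± 0.04.

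Among 34 tested MTORC1 and AMPK genes, 8 rose and 7 fell in HG against NC, 11 rose and 7 fell in HG-SIG against HG, and 12 rose and 9 fell in HG-SIG against NC, each with a median of 0.03 (24 and 3 by library size alone in HG-SIG against HG). The leading genes in HG against NC were sestrins, which restrain MTORC1 when amino acids are scarce, and they moved in opposite directions. Sesn1 was at 42.5 ± 4.12 CPM for NC, 91.6 ± 9.11 for HG and 55.0 ± 2.43 for HG-SIG, and Sesn2 at 13.3 ± 1.98, 4.69 ± 0.18 and 9.58 ± 0.284. The third sestrin gene, Sesn3, named after its values were seen, was near the limit of detection in NC and HG (0.0223 ± 0.0386 and 0.0232 ± 0.0402 CPM). In HG-SIG it was at 0.804 ± 0.185 CPM. The gene passed the filter on low counts only through its HG-SIG libraries, so its calls in HG-SIG are no separate evidence. It is counted among the 11 and the 12 higher genes above. Deptor, an MTOR inhibitor, rose from 14.8 ± 1.05 CPM in NC to 19.3 ± 2.76 in HG and 36.9 ± 1.66 in HG-SIG (0.94 ± 0.08 in HG-SIG against HG). Rptor, the MTORC1 scaffold, was lower than NC in HG and in HG-SIG (-0.35 ± 0.04 in each).

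Of 16 transcriptional regulators of autophagy genes, 3 rose and 7 fell in HG against NC, 7 rose and 5 fell in HG-SIG against HG, and 8 rose and 7 fell in HG-SIG against NC (medians 0.04, 0.13 and 0.14; 11 and 4 by library size alone in HG-SIG against HG). Mitf, a lysosome and autophagy activator of the TFE family, was at 167.7 ± 7.66 CPM for NC, 123 ± 4.25 for HG and 39.7 ± 0.652 for HG-SIG, with log2 differences of -0.45 ± 0.04 in HG against NC and -1.63 ± 0.04 in HG-SIG against HG. Tfeb, of the same family, went the other way in HG against NC, rising by 0.27 ± 0.06 (adjusted p = 0.00278; 16.6 ± 0.0381 to 20.02 ± 0.936 CPM), and fell by 0.74 ± 0.06 in HG-SIG against HG, to 12.04 ± 0.18 CPM. Atf4, the stress activator, fell by 0.51 ± 0.04 in HG against NC and by 0.42 ± 0.04 in HG-SIG against HG. Trp53inp1, a p53 target whose protein binds ATG8 proteins, rose by 1.87 ± 0.18 in HG-SIG against HG, from 0.891 ± 0.0737 to 3.29 ± 0.154 CPM. All of these kept their direction by library size alone. Tfe3 and Tfec, of the same family as Mitf and Tfeb, did not pass in HG-SIG against HG (-0.01 ± 0.04 and 0.25 ± 0.14). Both were lower in HG than in NC (-0.21 ± 0.04 and -0.64 ± 0.14). Tfe3 was at 102.4 ± 2.19 CPM in HG-SIG and Tfec at 3.09 ± 0.115. The macrophage markers fell beside each of these lists in HG-SIG, as given above.

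The 3 autophagy genes with the largest differences had close companions in pattern over the 9 libraries, as a description: log2 CPM of Wipi1 was most like Magi3, Nt5c2 and Ankrd13a (Pearson r = 0.991, 0.991 and 0.99). Ulk2 was most like Ints6, Hsdl2 and Suox (0.996, 0.996 and 0.995), and Ulk1 most like Slc49a4, Ulk2 itself and Nceh1 (0.996, 0.993 and 0.992). These points share the 3 groups and their depth, and many genes differ between the groups.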

How the data were processed

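Polyadenylated RNA of RAW264.7 cells was sequenced, per the labels' protocols (Trizol extraction, oligo(dT) selection, random hexamer priming). The authors deposited whole-number gene counts, 1 column per library; Bowtie2 2.3.5, RSEM and build mm10 are named in the submitters' processing notes, while annotation release and strand were not given in the sources used here. RSEM estimates could have been rounded before deposit. Groups were taken from titles; the labels give 1 batch, but not whether replicates were separate cultures: p-values then reflect spread between these libraries that may be technical only. Libraries of 1 group differed beyond sampling noise (chi-square per gene 2.82 to 9.13).

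From the counts, edgeR 4.0.16 in R 4.3.3 was fitted to all 9 libraries with a mean per group after filterByExpr (13311 of 20627 features, 1996 of which are unannotated loci with 5.85% to 6.21% of counts) and TMM scaling. Quasi-likelihood F-tests were adjusted over all tested genes (Benjamini-Hochberg), and every adjusted p in the text comes from them unless another is named. Alternatives used library size, DESeq2 size factors, other filters, DESeq2 1.42.0, limma-voom and limma 3.58.1 on log2(TPM + 1), the unit the series states; code was tested on simulated data. Totals of 23285821 to 31571578 counts limit precision for genes of a few CPM. Coordinates and lengths come from GENCODE M21 (GRCm38, the assembly of mm10), promoter sequence from RefSeq (GRCm38.p6). Autophagy genes and all lists were chosen with earlier results of these data known. Values in every library are given for the 8 called genes with the largest log2 fold change per comparison, the ATG8 family, Ulk1 and Becn1. Up to 4 genes per further list and comparison are named by p, and Sesn3, Tfe3, Tfec, Foxo1, Foxo3 and Foxo4 are named besides.

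Replicate numbers are shared by the groups. After removal of group means, same-numbered libraries correlated at 0.109 to 0.215 between HG and HG-SIG, over 0.1 in all 3 pairs, so the block is given beside those results where it changed a call; between NC and HG the range was 0.074 to 0.139 and between NC and HG-SIG 0.049 to 0.079.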

Additional observations from a re-analysis of the deposited data

How the results depend on the processing

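Of the values of single genes recomputed under the alternatives, 1136 kept their direction and their side of the threshold, 86 no longer passed, 11 newly passed and 21 changed sign; of the counts, 110 stayed within 1.5 times and 4 did not. The number of autophagy genes called in HG against NC was 9 and became 5 with only the 2 groups compared; leaving out any 1 of the 9 libraries gave 3 to 8. The same range was 17 to 19 in HG-SIG against HG and 21 to 26 in HG-SIG against NC. Calls that held under all 19 alternatives numbered 3 of 9 in HG against NC, 15 of 19 in HG-SIG against HG, and 15 of 25 in HG-SIG against NC.

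Most sign changes came with library size alone and with limma on log2(TPM + 1), which do not remove the shift shared by most genes in HG-SIG. Under these 2 settings Gabarapl2 was at 0.00527 and 0.00693 in HG against NC. In HG-SIG against HG, Becn1 was at 0.117 and 0.158, Gabarapl2 at 0.146 and 0.19 and, with limma on log2(TPM + 1) alone, Atg7 at 0.0024 and Gabarap at 0.0375. In HG-SIG against NC, Becn1 was at 0.108 and 0.152, Atg7 at 0.0277 and 0.0685, Atg4a at 0.0276 and 0.0729, Gabarapl1 at 0.069 and 0.113 and Gabarapl2 at 0.152 and 0.197. Leaving out 1 library moved Map1lc3a in HG-SIG against HG between -0.00475 and 0.299 and Gabarapl2 between -0.0354 and 0.00336. With limma on log2(TPM + 1), 6 autophagy genes were higher and 2 lower in HG against NC, 27 and 1 in HG-SIG against HG and 26 and 1 in HG-SIG against NC.

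With the replicate number as a block, 12, 20 and 26 autophagy genes were called in the 3 comparisons in the same order, and 4663, 7563 and 8282 of all genes. In HG against NC the block brought in Atg13, Wipi2 and Gabarap (adjusted p = 0.0383, 0.039 and 0.0294); in 18 of 18 comparisons of a library with another group it correlated best with its own number, a hint from the data and not the design. In HG-SIG against NC it brought in Gabarapl1, and it ended no call in any comparison. Depth limits Wipi1, Map1lc3a and Optn most.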
